A study of Mus musculus with 6 samples.

Results

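The 10 genes described here encode enzymes and a chaperone that modify and crosslink collagen: Lox, Loxl1, Loxl2, P4ha1, P4ha2, P4hb, Plod1, Plod2, Plod3 and Serpinh1. They were chosen by name, and all 10 were found among the 57010 genes of the table. RNA sequencing measured them in 6 libraries of mouse gastrocnemius, the fast-fibre muscle of the calf. The mice were of the NSG strain (NOD/SCID/IL2Rγ-null), which lacks mature lymphocytes, and every mouse carried a subcutaneous flank tumour of MDA-MB-231/Rab27a KD cells, a human breast cancer line with a knockdown of the vesicle-secretion GTPase Rab27a. For the radiotherapy group (n = 3), tumours were irradiated locally and once with 10 Gy, and the contralateral muscle was collected after 3 days. The control group (n = 3) carried the same tumour cells without that treatment. The labels give no age or sex, and no group here had tumours without the knockdown. Whether each sample is a different mouse is not stated either, so the p-values reflect the spread among these libraries, which may be technical.

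Collagen chains are modified while they are still being made in the endoplasmic reticulum. Prolyl 4-hydroxylase, built from an α subunit (P4ha1 or P4ha2) and the protein disulphide isomerase P4hb, hydroxylates prolines and so lets the triple helix stay folded at body temperature. The lysyl hydroxylases Plod1, Plod2 and Plod3 prepare lysines for glycosylation and crosslinking, and Serpinh1 (Hsp47) is a chaperone that binds the finished helix. Outside the cell, the copper enzymes Lox, Loxl1 and Loxl2 oxidise lysines in collagen and elastin, which then form covalent crosslinks. In muscle these enzymes act mainly in matrix-producing cells, whereas P4hb serves protein folding in all cells.

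Promoter sequence was available for 6 of the 10 genes (P4ha1, P4ha2, P4hb, Plod1, Plod3 and Serpinh1) in a RefSeq table on build GRCm38.p6. The 250 bases before the annotated start are shown for P4hb and Serpinh1, the most abundant members, and for P4ha1, the member with the lowest fold change. Capitals mark the ACGTG form of the core of the hypoxia response element on either strand (CACGT where it lies on the opposite strand). The GCGTG form was not searched for and is left unmarked. The sequences run 5′ to 3′ on the strand of the gene.
P4ha1, chr10:59323046-59323295, plus strand: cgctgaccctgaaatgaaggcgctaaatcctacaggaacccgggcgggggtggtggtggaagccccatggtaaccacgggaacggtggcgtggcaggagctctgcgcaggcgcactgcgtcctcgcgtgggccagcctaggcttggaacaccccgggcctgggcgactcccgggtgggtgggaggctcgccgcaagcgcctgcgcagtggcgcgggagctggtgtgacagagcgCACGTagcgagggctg
P4hb, chr11:120573254-120573503, minus strand: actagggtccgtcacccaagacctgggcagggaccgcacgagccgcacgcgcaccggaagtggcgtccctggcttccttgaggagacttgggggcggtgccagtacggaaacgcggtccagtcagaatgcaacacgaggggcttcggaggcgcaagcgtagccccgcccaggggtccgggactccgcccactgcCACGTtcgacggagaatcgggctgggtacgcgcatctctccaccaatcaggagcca
Serpinh1, chr7:99353240-99353489, minus strand: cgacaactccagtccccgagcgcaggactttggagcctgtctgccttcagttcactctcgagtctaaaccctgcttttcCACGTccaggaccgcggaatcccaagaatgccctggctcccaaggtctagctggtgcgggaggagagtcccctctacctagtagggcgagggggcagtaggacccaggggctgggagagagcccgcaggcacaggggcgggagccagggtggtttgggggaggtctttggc
The ACGTG form ended 12 bases before the start in P4ha1, 52 bases before it in P4hb and 167 bases before it in Serpinh1. It was found in 5 of the 6 member promoters, all but Plod1, against 16.6% of the 32851 promoters in the table. These windows are rich in G and C (69.6% in P4ha1, 66.8% in P4hb and 63.6% in Serpinh1), and a letter match is not a binding site. The heat shock pair GAANNTTC, searched on both strands, was in none of the 6 windows, against 6.69% of all promoters. The same search gave the CCAAT box in 2 of the 6 windows, against 33.9% of all promoters. It gave the SMAD box CAGAC in 2 of 6, against 42.2%, and the TATA box TATAAA in 1 of 6, against 12.4%.

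Levels are in TPM, the share of transcripts corrected for gene length, which sums to the same total in every library, so that sequencing depth was unknown. Per length, P4hb was the most abundant member, with a mean of 91.5 TPM over the 6 libraries and 50.8% of the summed level of the 10 genes. Serpinh1 (24.0 TPM) and P4ha2 (22.2 TPM) came next and did not separate, since Serpinh1 was the higher of the pair in 3 of 6 libraries. P4ha2 exceeded Plod3 in 6 of 6 libraries, whereas Plod3 (13.7 TPM), P4ha1 (11.7 TPM) and Plod1 (9.89 TPM) changed places between libraries. Lox followed at 3.12 TPM and stood above Loxl1 in 6 of 6 libraries. Loxl1 (1.78 TPM) and Plod2 (1.54 TPM) were not separable, and Loxl2 was lowest at 0.558 TPM.

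**Figure D1:**
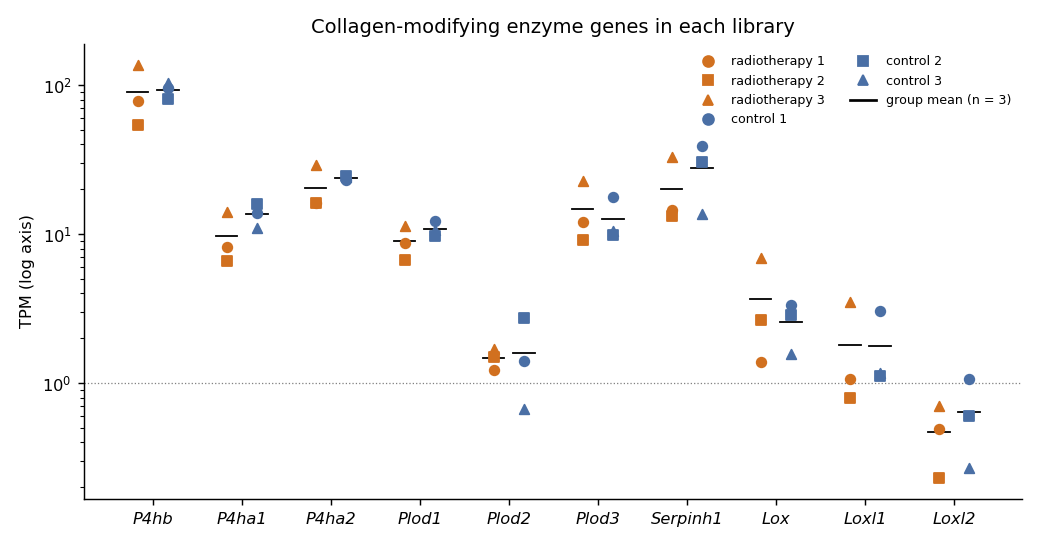
TPM of the 10 genes (log axis) in each library, radiotherapy left of control for each gene; symbols give the replicate, black lines the group means (n = 3 each), and the dotted line 1 TPM. Radiotherapy 3 holds the highest value for 5 genes and radiotherapy 2 the lowest for 7, so the radiotherapy points bracket the control points in many genes.

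None of the enzymes and neither Serpinh1 nor P4hb separated radiotherapy from control muscle. Of the 10 genes, 9 reached at least 1 TPM in at least 3 libraries and were tested with limma on log2(TPM + 1), and 0 of the 9 passed an adjusted p of 0.05. Across all 11375 genes tested the share called was 0%, and 3.82% (435 genes) had an unadjusted p under 0.05, against 0 of the 9 members. The radiotherapy and control values overlapped for all 9, while 9.24% of all tested genes did not overlap. The fold change was below 0 for 7 of the 9 members and for 67.9% of all tested genes. Its median was −0.16 over the members and −0.11 over all tested genes.

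The prolyl hydroxylase genes had their lowest values in radiotherapy 1 and 2. P4ha1, a catalytic α subunit, was at 8.23, 6.63 and 14.1 TPM in radiotherapy 1, 2 and 3, against 13.9, 16.0 and 11.1 TPM in controls 1, 2 and 3. Radiotherapy 1 and 2 lay below every control, and radiotherapy 3 lay within the control range. P4ha1 gave the largest negative fold change of the 9, a log2 fold change of −0.51 (SE 0.30, 95% interval −1.20 to 0.18, limma adjusted p = 0.977). P4ha2, the other α subunit, was at 16.1, 16.3 and 29.1 TPM in the radiotherapy libraries, against 23.0, 24.4 and 24.1 TPM in the controls. Its control values were close together (SD 0.731 TPM), with radiotherapy 1 and 2 below them and radiotherapy 3 above them. The log2 fold change of P4ha2 was −0.26 (SE 0.28, limma adjusted p = 0.977). P4hb, the common β subunit, was at 77.7, 53.7 and 137 TPM in the radiotherapy libraries, against 95.9, 81.3 and 103 TPM in the controls. Here too the radiotherapy libraries lay on both sides of the controls, at a mean of 89.6 ± 43.0 TPM after radiotherapy and 93.4 ± 11.0 TPM in control (SD, n = 3 each). Its log2 fold change of −0.16 (95% interval −0.92 to 0.60) turned to 0.03 with quantile normalization. The third α subunit gene, P4ha3, was listed at 0 in 5 of the 6 libraries.

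Serpinh1 varied more than any other tested member on the log2 scale (SD 0.69 over the 6 libraries). Its level was 14.5, 13.2 and 33.1 TPM in the radiotherapy libraries, against 38.9, 30.6 and 13.6 TPM in the controls. Each group held both high and low libraries: radiotherapy 3 and controls 1 and 2 were high, and radiotherapy 1, radiotherapy 2 and control 3 were low. The log2 fold change was −0.44 (SE 0.45, 95% interval −1.45 to 0.58, limma adjusted p = 0.977). It was −0.14 without control 1 and −0.86 without control 3.

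Of the lysyl hydroxylases, Plod1, which modifies helical lysines, was at 8.77, 6.70 and 11.4 TPM in radiotherapy muscle, against 12.2, 9.72 and 10.6 TPM in control muscle. The groups overlapped only through radiotherapy 3, and the log2 fold change was −0.27 (SE 0.26, limma adjusted p = 0.977). Plod3, which also carries glycosyltransferase activity, was at 12.1, 9.15 and 22.9 TPM after radiotherapy, against 17.8, 9.91 and 10.4 TPM in control. Its log2 fold change of 0.15 (SE 0.36) rested on radiotherapy 3 and was −0.20 without it. Plod3 shares 529 of its 4519 annotated exonic bases with Znhit1 on the other strand, so its value is uncertain where strand is not known. The same limit holds for Plod2 (346 of 5392 bases, with Gm38391) and Loxl2 (301 of 5405, with Gm27177). It is smaller for Lox (30 of 4778, with AC161119.1). Plod2, which hydroxylates the telopeptide lysines behind the stable crosslinks of fibrotic tissue, was low in every library. It was at 1.22, 1.50 and 1.70 TPM after radiotherapy, against 1.40, 2.74 and 0.67 TPM in control, and the 3 radiotherapy values lay inside the control range. The fold change of Plod2 was close to 0 (95% interval −0.66 to 0.66).

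The lysyl oxidases, with Plod2, had the lowest levels of the 10 genes. Lox was at 1.39, 2.65 and 6.92 TPM in the radiotherapy libraries, against 3.34, 2.85 and 1.58 TPM in the controls. The radiotherapy group held both the highest and the lowest value. The mean of 3.65 ± 2.90 TPM after radiotherapy stood beside 2.59 ± 0.908 TPM in control (log2 fold change 0.23, 95% interval −0.72 to 1.17), and the fold change was −0.25 without radiotherapy 3. Loxl1, which acts largely on elastin, was at 1.07, 0.80 and 3.50 TPM after radiotherapy, against 3.04, 1.12 and 1.17 TPM in control. A single library of each group, radiotherapy 3 and control 1, stood at about the same height above the rest. Loxl2 reached 1 TPM only in control 1 and was not tested, with 0.49, 0.23 and 0.70 TPM after radiotherapy, against 1.06, 0.60 and 0.27 TPM in control. With no filter its log2 fold change was −0.14 (SE 0.22, limma adjusted p = 0.918).

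**Figure D2:**
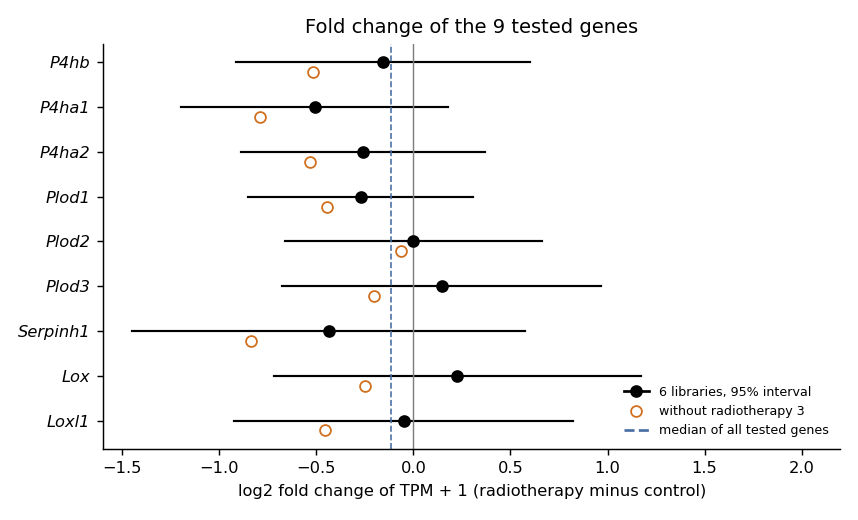
Log2 fold change of TPM + 1 (radiotherapy minus control) for the 9 tested genes with 95% intervals from limma; open circles give the value without radiotherapy 3 and the dashed line the median of all tested genes. Every interval spans 0, and all 9 open circles lie below 0. Radiotherapy 3 was the highest radiotherapy library for every gene shown, so leaving it out had to lower each value.

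Libraries of 1 group differed widely in these genes. Radiotherapy 1 lay below all 3 controls in 6 of the 10 genes and radiotherapy 2 in 8 of 10, while radiotherapy 3 lay above all 3 controls in 5 of 10. The same order held for genes in general: 36.5% of all tested genes in radiotherapy 1 and 58.0% in radiotherapy 2 were below every control, and 38.1% in radiotherapy 3 were above every control. The summed level of the 10 genes was 142, 111 and 261 TPM in the radiotherapy libraries, against 211, 179 and 176 TPM in the controls. Radiotherapy 3 was the highest radiotherapy library for all 10 genes, so leaving it out had to lower every fold change. Without radiotherapy 3 all 9 tested members had negative fold changes, with a median of −0.46 beside −0.25 for all tested genes. Still none passed limma (smallest adjusted p = 0.507). Without radiotherapy 2, 5 members were negative and 4 positive, with a median of −0.01 beside −0.005 for all tested genes. Transcripts of the mitochondrial genome, whose share lowers that of every other gene, made up 18.9%, 22.5% and 15.1% of TPM in radiotherapy 1, 2 and 3, against 10.4%, 13.7% and 8.93% in the controls. With the mitochondrial and the 50 most abundant other genes removed and the rest rescaled, the median fold change was −0.05 over the members and −0.02 over all tested genes. Median-of-ratios scaling, which centres the libraries on their typical gene, moved the member median to −0.02 and that of all tested genes to −0.0014.

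Shares within a subfamily do not depend on how a library is scaled. Plod3 made up 54.8%, 52.7% and 63.6% of the TPM of the 3 lysyl hydroxylases after radiotherapy, against 56.7%, 44.3% and 48.0% in control. Only control 1 lay among the radiotherapy libraries, and the mean difference was 7.36 percentage points with group SDs of 5.79 and 6.36. P4ha1 made up 33.8%, 28.9% and 32.7% of the α subunit TPM after radiotherapy, against 37.7%, 39.6% and 31.5% in control. Control 3 stood among the radiotherapy libraries here, and P4ha2 was the more abundant α subunit gene in all 6 libraries. Among the lysyl oxidases Lox took 47.1%, 72.0% and 62.2% after radiotherapy, against 44.9%, 62.4% and 52.3% in control. The groups overlapped in each of these shares.

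**Figure D3:**
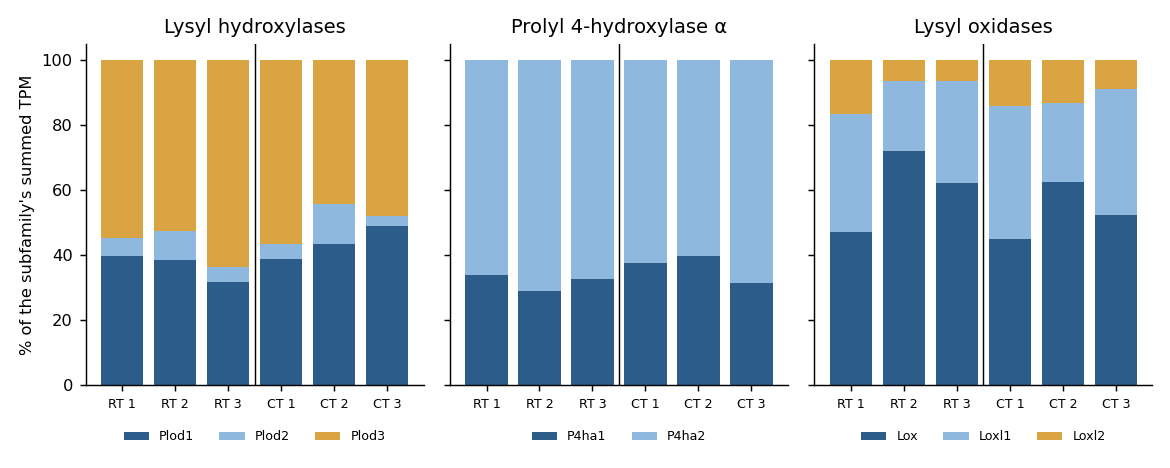
Percent of the summed TPM of each subfamily taken by each gene, in radiotherapy (RT) and control (CT) libraries 1 to 3. P4ha2 holds at least 60.4% of the α subunit TPM in every library and Plod2 at most 12.2% of the lysyl hydroxylase TPM.

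The enzymes were next set beside their substrates. Of 14 collagen chain genes 11 were tested. As among all tested genes, 0 passed limma, with 4 positive and 7 negative fold changes and a median of −0.11. Serpinh1 exceeded Col1a1, a fibrillar collagen chain, by 7.61-fold, 8.19-fold and 7.14-fold in radiotherapy 1, 2 and 3. The excess was 5.12-fold, 13.3-fold and 12.0-fold in controls 1, 2 and 3. Col1a1 had a mean of 3.20 TPM over the 6 libraries, below the fibrillar chains Col3a1 (10.8 TPM) and Col1a2 (6.02 TPM). The 3 radiotherapy ratios were close together, although Serpinh1 itself differed 2.51-fold among these libraries, and they lay inside the wider range of the controls. The 10 genes together stood at 3.05, 2.69 and 2.83 times the summed collagen TPM after radiotherapy, against 1.66, 3.95 and 5.51 times in control. P4hb, which serves protein folding in all cells, made up 50.8% of the summed level of the 10 genes. Control 1 had the lowest ratio and the most collagen (127 TPM over the 14 genes), and control 3 had the highest ratio and the least collagen (32.0 TPM). No difference between groups was tested for these ratios.

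**Figure D4:**
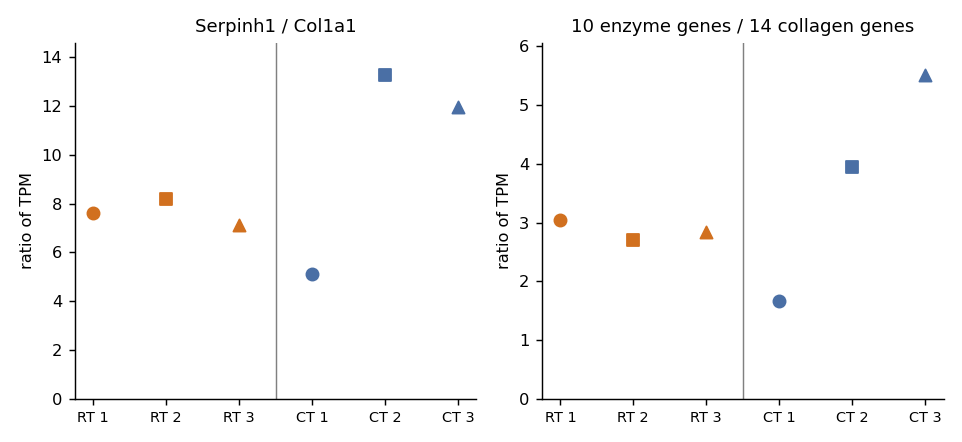
Ratio of TPM in each library, Serpinh1 over Col1a1 on the left and the 10 enzyme genes over 14 collagen genes on the right, with radiotherapy (RT) before control (CT). The radiotherapy ratios lie between 7.14 and 8.19 on the left and between 2.69 and 3.05 on the right, inside the spread of the controls.

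Genes that work beside the 10 showed no call either, and the share called over all 11375 tested genes was 0%. A list without a call therefore does not show that its genes were unchanged. Of 9 chaperones of the endoplasmic reticulum 0 passed, with a median of 0.04 and 5 positive fold changes. Calr, a lectin-like chaperone, was at 112 ± 44.0 TPM after radiotherapy and 109 ± 44.2 TPM in control, and Hspa5 (BiP) was at 66.3 ± 31.7 TPM after radiotherapy and 71.0 ± 37.3 TPM in control (SD, n = 3 each). Of 10 tested genes of procollagen folding and secretion 0 passed (median −0.09). The log2 fold change was 0.01 (SE 0.37) for Sparc, a collagen-binding matricellular protein, and −0.11 (SE 0.30) for the cyclophilin Ppib, a partner of prolyl 3-hydroxylation. Of 5 tested genes of prolyl 3-hydroxylation and lysine glycosylation 0 passed (median −0.05), with 0.39 (SE 0.29) for Crtap and −0.28 (SE 0.31) for the galactosyltransferase Colgalt1. Procollagen processing had 3 tested genes and 0 calls (median −0.11), and its most abundant, the proteinase enhancer Pcolce, was highest in control 1 at 30.0 TPM. The 4 tested elastic fibre genes had 0 calls and a median of −0.02. Eln, the elastin that lysyl oxidases crosslink, was at 8.27, 5.63 and 17.3 TPM after radiotherapy, against 7.93, 9.63 and 4.24 TPM in control. The groups overlapped, with radiotherapy 3 again the highest. Tgm2, a transglutaminase that crosslinks matrix by another chemistry, was at 37.8, 34.2 and 90.0 TPM after radiotherapy, against 46.6, 47.3 and 49.0 TPM in control. It showed the layout of P4ha2, with 3 nearly equal controls between 2 low and 1 high radiotherapy library.

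Genes linked to the cofactors and to known inducers of these enzymes were likewise without a call, as were all tested genes. Of 3 tested genes of ascorbate and copper supply 0 passed (median −0.12), led by the copper chaperone Atox1 at −0.12 (SE 0.24). Of 12 hypoxia-related genes, most of them targets of the HIF factors that can also induce P4ha1, 0 passed, with 5 positive and 7 negative values (median −0.20). The groups did not overlap for 2 of the 12, Ldha among them, against 9.24% of all tested genes. Unadjusted limma p was under 0.05 for 2 of the 12, against 3.82% of all tested genes. The log2 fold change of Ldha, the lactate dehydrogenase of fast muscle, was −1.06 (SE 0.39, limma adjusted p = 0.977). That of Vegfa, the endothelial growth factor, was 0.37 (SE 0.42, limma adjusted p = 0.979). Pgk1 was at −0.71 (SE 0.35) and Bnip3 at 0.15 (SE 0.38). Of 10 genes of the TGF-β and YAP responses, pathways that can induce Lox and Plod2, 0 passed, with 8 negative values and a median of −0.42. Acta2, the smooth muscle actin and the most abundant of them, was at 49.0, 44.2 and 57.9 TPM after radiotherapy, against 49.5, 45.7 and 24.8 TPM in control, with overlapping groups (log2 fold change 0.38, SE 0.30). Ccn1, a secreted YAP target and the next in abundance, was at 33.0, 19.2 and 27.2 TPM after radiotherapy, against 52.7, 42.9 and 40.4 TPM in control. Ccn1 was the only gene of the 10 whose groups did not overlap, near the share of 9.24% among all tested genes. Its log2 fold change was −0.78 (SE 0.27, limma adjusted p = 0.977).

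Markers of other cells also differed between libraries, with different libraries highest for different cell types. All 10 fast fibre markers of the labelled tissue were present. They summed to 84108 to 144098 TPM after radiotherapy and 163432 to 179813 TPM in control, without overlap. The 10 leukocyte markers summed to 165, 184 and 789 TPM in radiotherapy 1, 2 and 3, against 1842, 303 and 287 TPM in the controls, and none was at 0 in any library. Control 1 and radiotherapy 3 were thus the highest libraries of their groups for these markers. Among the members, radiotherapy 3 was the highest radiotherapy library for all 10. Control 1 was the highest control for 6 of them (Lox, Loxl1, Loxl2, Plod1, Plod3 and Serpinh1), control 2 for P4ha1, P4ha2 and Plod2, and control 3 for P4hb. Such counts were not made over all tested genes. The median of all tested genes, each less its own mean, was −0.09, −0.29 and 0.20 in radiotherapy 1, 2 and 3. It was 0.04, 0.05 and 0.08 in controls 1, 2 and 3. The 10 fibroblast markers summed to 339 to 438 TPM after radiotherapy and to 283 to 796 TPM in control, highest in control 1, and none was at 0. The 8 tendon cell markers summed to 12.3 to 17.6 TPM after radiotherapy and to 20.3 to 42.8 TPM in control, without overlap. Kera was at 0 in radiotherapy 3 and Cilp2 in radiotherapy 1 and 3. None of the tested markers of any cell type passed limma, where the share called over all tested genes was 0%. Adipocyte markers summed to 580 to 2289 TPM after radiotherapy and to 265 to 865 TPM in control, Schwann cell markers to 21.2 to 449 TPM after radiotherapy and to 21.2 to 81.4 TPM in control. Erythroid genes summed to 930 to 1618 TPM after radiotherapy and to 3352 to 7203 TPM in control, also without overlap. Gene by gene, groups did not overlap for 7 of 10 fast fibre, 2 of 3 tested tendon cell and 5 of 5 erythroid genes. The same held for 1 of 6 smooth muscle and pericyte markers and for no tested marker of the other cell types. The share among all tested genes was 9.24%. The medians of the log2 fold changes were 0.08 for 8 endothelial markers and 0.24 for 6 smooth muscle and pericyte markers. Slow fibre genes (7 tested) were at 0.24, adipocyte markers (5) at 1.31 and Schwann cell markers (4) at 1.15. Below 0 were fast fibre genes (−0.57, 10 tested) and tendon cell (−0.97, 3), erythroid (−1.81, 5), leukocyte (−0.47, 7) and fibroblast markers (−0.12, 9). The median of all tested genes was itself −0.11, near that of the fibroblast markers. The 3 satellite cell markers were too low to test. The part of these markers in the values of the members was not tested, and in whole muscle fewer cells of a type and less RNA per cell cannot be told apart.

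**Figure D5:**
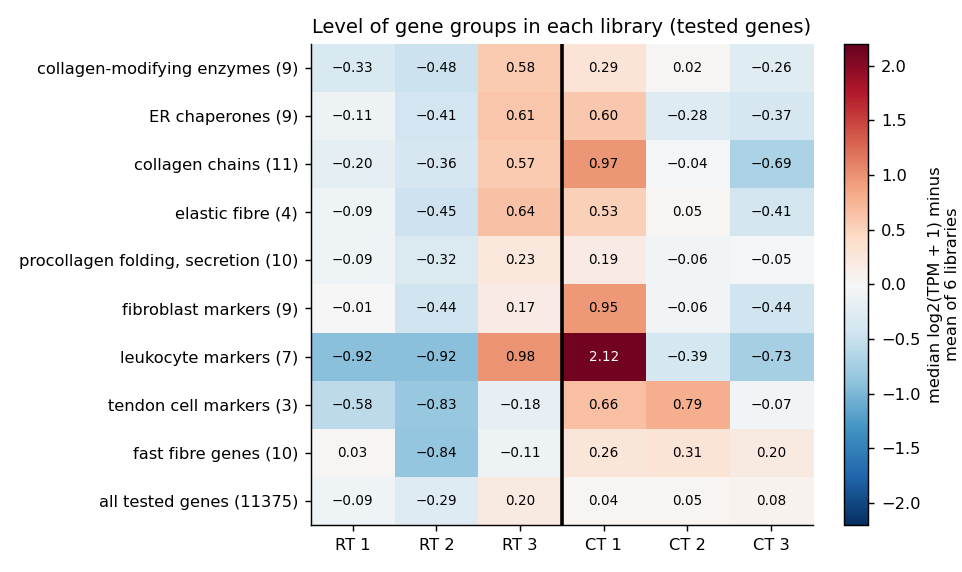
Median over the tested genes of each group (number in brackets) of log2(TPM + 1) minus the gene's mean over the 6 libraries, for radiotherapy (RT) and control (CT) libraries. The enzyme genes are at 0.58 in RT 3 and 0.29 in CT 1 and at or below 0.02 in the other libraries. RT 3 and CT 1 are also the highest libraries for chaperones, collagen, elastic fibre and procollagen genes and for fibroblast and leukocyte markers. All tested genes are highest in RT 3 (0.20), and tendon cell markers and fast fibre genes in CT 2.

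Named genes with profiles most like the 3 most variable members were sought by the root-mean-square difference of centred log2(TPM + 1) over the 6 libraries. For Serpinh1 they were the actin nucleator Actr3 (0.15), the urokinase receptor Plaur (0.16) and Tagln2 (0.16). For Lox they were the BMP antagonist Nog (0.13), Serpina3h (0.14) and Zc3h12a (0.15). For Loxl1 they were Emilin1, an elastic fibre glycoprotein (0.051), the tetraspanin Cd82 (0.10) and the endoplasmic reticulum chaperone Hsp90b1 (0.12). With 6 libraries many genes can lie this close.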

How the data were processed

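The authors deposited a table of TPM values, 1 column per sample. HISAT2, StringTie, RSEM and build mm9 are named, per the submitters' processing notes. The annotation used is not given in the sources used here, nor are tool versions, strandedness or filters. Each deposited column sums to 1000000 TPM within 1, so depth, counting intervals and detection limits are unknown, and a rise of abundant transcripts depresses every other value. No 2 libraries were alike (at most 4.16% equal nonzero values in any pair).

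Values were transformed to log2(TPM + 1), which understates fold changes of low genes. Testing was limited to genes reaching 1 TPM in 3 or more of the 6 libraries and used limma 3.58.1 in R 4.3.3 (mean-variance trend, group as the only term, two-sided), with Benjamini-Hochberg adjustment over all 11375 tested genes and a threshold of 0.05. Fold changes are radiotherapy minus control. The procedure was tested on simulated data. The members and 21 other gene lists were chosen with earlier results of these data known, so lists are described by counts and medians, without a list test.

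Besides the members, the text names up to 4 genes of highest mean TPM per pathway list, Col1a1 for the ratio to Serpinh1, and the 3 nearest profiles of the 3 most variable members; P4ha3 and the tendon markers Kera and Cilp2 were named from the lists after their values were seen. Exon overlaps come from GENCODE M21, which matched all 10 members; no coordinates of the deposited table are given, and promoter coordinates are those of the RefSeq table. Alternatives were a 0.1 pseudocount, testing without a filter or with one at 5 TPM, 3 other scalings, limma without trend and with robust variance, the replicate number as a block, and each library left out. Plots used matplotlib 3.10.9 (Python 3.11.15).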

Additional observations from a re-analysis of the deposited data

How the results depend on the processing

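No member passed limma under any of the 15 alternatives. The sign of 1 or 2 members changed in 9 of the 15, and every such value stayed uncalled. The 2 filter settings, the 2 variance settings and the replicate block leave each fold change as it was, so no sign could change there. Among the alternatives that can move a fold change, only leaving out control 3 changed no sign. The log2 fold change of Plod2 was 0.071 with a pseudocount of 0.1, 0.082 with median-of-ratios scaling and 0.10 with mitochondrial and abundant genes removed, Loxl1 was 0.0038 with median-of-ratios scaling, and P4hb was 0.033 with quantile normalization. With each library left out in turn, Lox ranged from −0.25 to 0.62, Loxl1 from −0.46 to 0.25, P4hb from −0.52 to 0.15, Plod2 from −0.28 to 0.30 and Plod3 from −0.20 to 0.41, while P4ha1 (−0.79 to −0.30), P4ha2 (−0.53 to −0.12), Plod1 (−0.44 to −0.10) and Serpinh1 (−0.86 to −0.14) kept their sign. The member median ranged from −0.46 without radiotherapy 3 to −0.01 without radiotherapy 2, and that of all tested genes from −0.25 to −0.01 for the same libraries. Over all genes 0 to 1 were called, namely Gm24497 without radiotherapy 1 and Gm55635 without control 1, neither a member. The difference in the Plod3 share ranged from 4.06 to 10.9 percentage points, in the P4ha1 share from −6.82 to −2.78 and in the Lox share from 1.48 to 13.9. On the log2 scale the ratio of Serpinh1 to Col1a1 differed by −0.72 to −0.04, and that of the members to collagens by −0.71 to 0.16. With the replicate number as a block 0 genes and 0 members were called (smallest limma adjusted p = 0.818 over all genes and 0.984 over the members), and the fold changes were the same. Same-numbered deviations correlated across genes at −0.06, 0.02 and −0.11, and differently numbered ones at −0.13 to 0.17. With 3 libraries per group these values cannot decide whether the numbers pair the libraries. The causes of these changes were not tested, and unknown depth limits what can be said of Loxl1, Plod2 and Loxl2.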
